A study of Homo sapiens with 11 samples.

Results

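The chromosome 6 histone genes described here are the 55 protein-coding genes in the interval chr6:25500000-28500000 (GRCh38) whose symbols begin with H1-, H2AC, H2BC, H3C or H4C, of 19974 protein-coding genes in all. The rule uses name and position and no measured value. There were 6 linker histone H1 genes, 12 H2A genes, 15 H2B genes, 10 H3 genes and 12 H4 genes, with a median gene length of 489 bp. Gaps of over 500 kb divided them into 3 stretches, with 34 genes from H2AC1 to H4C8 (chr6:25726063-26285534), 5 from H2BC11 to H2AC12 (chr6:27132316-27147562) and 16 from H2BC13 to H2BC17 (chr6:27807479-27893891).

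The series applied chromatin immunoprecipitation and sequencing to SKNMC, an established human Ewing sarcoma line whose driver is the EWSR1::FLI1 fusion, and asked where subunits of the nucleosome remodelling and deacetylase complex (NuRD) sit in its genome. Its 11 samples, all labelled wildtype, with no treatment or time given, comprised 1 sample each for the histone marks H3K4me3, H3K4me1, H3K27me3 and H3K27ac, for FLI1, and for the subunits RBBP4, MTA2, HDAC2 and Flag-tagged CHD4, and 2 inputs that were not analysed here. The origin of the Flag tag is not stated, and a single cell line stands for the tumour. CHD4 is the remodelling ATPase of NuRD, HDAC2 a deacetylase, MTA2 a scaffold, and RBBP4 a histone-binding subunit that also belongs to other complexes, among them the chaperone CAF-1 and PRC2. H3K4me3 and H3K27ac mark active promoters, the second also active enhancers, H3K4me1 marks enhancers, and H3K27me3 marks Polycomb-repressed chromatin. The 7 markers of Ewing cells that were examined, such as NR0B1 and NKX2-2, all had H3K4me3 and H3K27ac peaks within 1 kb and a FLI1 peak within 100 kb. They were listed as genes bound by the fusion or active in Ewing cells, so their choice in part gave this outcome. Of 7 genes of blood, epithelium, muscle and endothelium, 1 had H3K4me3 (KRT8) and 2 had H3K27ac (KRT8 and PTPRC), and 1 (PTPRC) had FLI1 within 100 kb.

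Replication-dependent histone genes supply the proteins that package newly copied DNA. They are short, mostly lack introns, and give mRNAs that end in a stem-loop instead of a poly(A) tail. Many copies encode the same or nearly the same protein, their transcription is concentrated in S phase at nuclear bodies organised by NPAT, and a few members of the chromosome 6 cluster are known as testis genes.

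A gene was counted for a target when at least 1 bp of a peak lay within 1 kb of either annotated end. With 1 sample per target there was no replicate check and no test could be made. Shares carry a 95% Wilson interval over genes, which covers counting only and is too narrow where neighbours share a peak. The peak height given is the authors' fold enrichment of the summit over local background, read only within its own list, and the percentile is the rank of a peak by that value within its list. Read depth is unknown, and a site below the smallest −log10 p of its list is not in the list.

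Promoter sequences are shown first, to let marked and bare genes of the same family be read side by side, and the genes were picked for this after their peaks were seen. The 9 stretches cover the 250 bases before an annotated start, 5′ to 3′ on the strand of the gene named, from RefSeq (GRCh38.p14). Capitals mark the searched motifs, on either strand. The core promoter box was searched as TATAAA and is called the TATA box below. The CCAAT box, bound by the factor NF-Y, was searched by those letters. The octamer read by POU2F1 was searched as ATTTGCAT. The H1 box, known from linker histone promoters, was searched as AAACACA. The core read by HINFP, a regulator of H4 genes, was searched as GCGGAC. For E2F factors either of the words TTTCGCGC or, in its place, TTTGGCGC was counted. For the ETS family, to which FLI1 belongs, a repeat was searched as GGAAGGAA. Several H2A and H2B genes lie head to head, so the first set also holds most of the promoter of the partner gene. H2BC17 (partner H2AC17) and H2AC6 (partner H2BC4) had H3K4me3 and H3K27ac peaks, while H2AC8 (partner H2BC8) had no peak in any of the 9 lists.
H2BC17 (chr6:27893175-27893424, plus strand): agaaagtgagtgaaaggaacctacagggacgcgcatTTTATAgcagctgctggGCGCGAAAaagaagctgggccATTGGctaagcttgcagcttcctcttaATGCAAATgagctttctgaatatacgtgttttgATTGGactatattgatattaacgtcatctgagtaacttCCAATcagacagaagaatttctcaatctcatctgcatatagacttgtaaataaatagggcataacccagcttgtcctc
H2AC6 (chr6:26123922-26124171, plus strand): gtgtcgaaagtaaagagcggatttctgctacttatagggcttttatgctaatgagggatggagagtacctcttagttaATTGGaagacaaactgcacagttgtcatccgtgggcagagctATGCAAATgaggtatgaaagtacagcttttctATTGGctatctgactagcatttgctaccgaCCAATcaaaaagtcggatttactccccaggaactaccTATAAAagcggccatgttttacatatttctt
H2AC8 (chr6:26216671-26216920, plus strand): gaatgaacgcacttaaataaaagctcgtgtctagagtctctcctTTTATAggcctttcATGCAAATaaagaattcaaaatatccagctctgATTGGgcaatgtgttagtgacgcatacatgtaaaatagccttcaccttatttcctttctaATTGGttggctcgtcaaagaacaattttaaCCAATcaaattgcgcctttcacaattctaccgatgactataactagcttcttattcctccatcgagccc

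The next set pairs a marked with a bare gene in the H1, H3 and H4 families. H1-4, H3C2 and H4C2 had both active marks. H1-3, H3C3 and H4C6 had no peak in any of the 9 lists.
H1-4 (chr6:26156079-26156328, plus strand): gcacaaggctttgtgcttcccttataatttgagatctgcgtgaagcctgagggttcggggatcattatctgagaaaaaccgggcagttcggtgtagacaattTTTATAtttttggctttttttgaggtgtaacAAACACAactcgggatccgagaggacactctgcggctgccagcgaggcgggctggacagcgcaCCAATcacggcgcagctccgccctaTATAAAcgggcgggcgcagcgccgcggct
H1-3 (chr6:26234988-26235237, minus strand): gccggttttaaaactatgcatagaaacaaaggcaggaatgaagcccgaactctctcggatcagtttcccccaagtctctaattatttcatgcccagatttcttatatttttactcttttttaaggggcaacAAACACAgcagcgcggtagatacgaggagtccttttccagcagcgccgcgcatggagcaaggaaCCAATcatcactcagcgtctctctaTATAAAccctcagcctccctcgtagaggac
H3C2 (chr6:26032100-26032349, minus strand): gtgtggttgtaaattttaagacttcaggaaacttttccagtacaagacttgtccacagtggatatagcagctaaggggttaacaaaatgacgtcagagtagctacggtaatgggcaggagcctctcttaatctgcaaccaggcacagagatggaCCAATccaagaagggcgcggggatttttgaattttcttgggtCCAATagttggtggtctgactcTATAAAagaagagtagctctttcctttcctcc
H3C3 (chr6:26045134-26045383, plus strand): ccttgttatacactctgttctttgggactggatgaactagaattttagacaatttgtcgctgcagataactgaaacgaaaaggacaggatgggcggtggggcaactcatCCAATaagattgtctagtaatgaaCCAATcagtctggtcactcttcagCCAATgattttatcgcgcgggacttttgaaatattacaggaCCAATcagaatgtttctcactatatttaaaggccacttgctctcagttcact
H4C2 (chr6:26027284-26027533, minus strand): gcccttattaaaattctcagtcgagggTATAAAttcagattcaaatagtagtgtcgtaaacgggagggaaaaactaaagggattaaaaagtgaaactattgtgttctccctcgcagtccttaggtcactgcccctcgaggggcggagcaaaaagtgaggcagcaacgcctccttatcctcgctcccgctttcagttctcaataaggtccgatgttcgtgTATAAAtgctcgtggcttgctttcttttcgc
H4C6 (chr6:26240143-26240392, plus strand): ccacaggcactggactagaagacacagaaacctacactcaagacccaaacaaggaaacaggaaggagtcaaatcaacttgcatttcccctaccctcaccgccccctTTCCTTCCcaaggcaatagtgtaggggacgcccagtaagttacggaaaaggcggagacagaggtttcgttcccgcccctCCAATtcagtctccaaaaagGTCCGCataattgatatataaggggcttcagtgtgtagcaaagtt

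In these stretches the 2 H1 promoters carried the same 3 motifs in the same order, with the H1 box starting 117 bases before the start of H1-4 and 119 before that of H1-3, the CCAAT box 54 and 55 bases before, and a TATA box 29 and 30 bases before. H1-4 had a further TATA match on the opposite strand, 148 bases before its start. H3C2 held CCAAT boxes 96 and 54 bases before its start and a TATA box 32 bases before. The bare H3C3 held 4 CCAAT boxes and no TATAAA. H4C2 had a TATA box 31 bases before its start and no CCAAT box, whereas the bare H4C6 had a CCAAT box, a HINFP core 45 bases before its start and an ETS repeat. Only the exact word TATAAA was counted, so close spellings, such as tatataa in the H4C6 stretch, are not included. Over the family, the HINFP core was present at 3 of 5 marked and 2 of 5 bare H4 promoters.

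The genes fell into 2 classes with no gene between them. H3K4me3 peaks lay at 29 of the 55 histone genes (52.73%, interval 39.79 to 65.31), against a background of 57.0% of all protein-coding genes. H3K27ac peaks also lay at 29 (52.73%), against 39.4% of all genes, and these were the same 29. The other 26 genes had no peak of any kind in the 9 lists, so that 29 had any peak, where 61.9% of all genes did. The peak numbers of the H3K4me3 list skip 213 values, 2 of them within the interval. Called H3K4me3 peaks may thus be absent from the list, and whether any lay at a bare gene is unknown. Among protein-coding genes without H3K4me3, 971 of 8586 (11.31%) had some other peak, while 0 of the 26 bare histone genes did. No interval was computed for this small set and the difference was not tested, so no conclusion is drawn from that count.

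Both marks together were thus the rule at the marked histone genes. H3K27ac accompanied H3K4me3 at 29 of 29 (100%, interval 88.3 to 100), where 66.9% of all genes with H3K4me3 had it. The 35 other protein-coding genes of the same interval had H3K4me3 at a like share, 21 (60%), but H3K27ac at 12 (34.29%), which is 57.14% of the 21 with H3K4me3 (interval 36.55 to 75.53). That interval does not reach the one of the histone genes. However, 23 of the 29 marked histone genes shared an H3K27ac peak, so their interval is too narrow, and the difference was not tested.

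Marked and bare genes alternated within each of the 3 stretches, in 21 runs of 1 to 6 genes. Runs were cut at the gaps between stretches, so the marked H4C8 and the marked pair H2BC11 and H2AC11 count as separate runs. The longest bare run, chosen for mention after its values were seen, held 6 genes over 30.8 kb (chr6:26216200-26246996): H2BC8, H2AC8, H3C6, H1-3, H4C6 and H4C7. The longest marked run by number held H3C1, H4C1, H4C2, H3C2 and H2AC4 within 13.17 kb. The 3 stretches had H3K4me3 at 17 of 34, 2 of 5 and 10 of 16 genes.

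**Figure D1:**
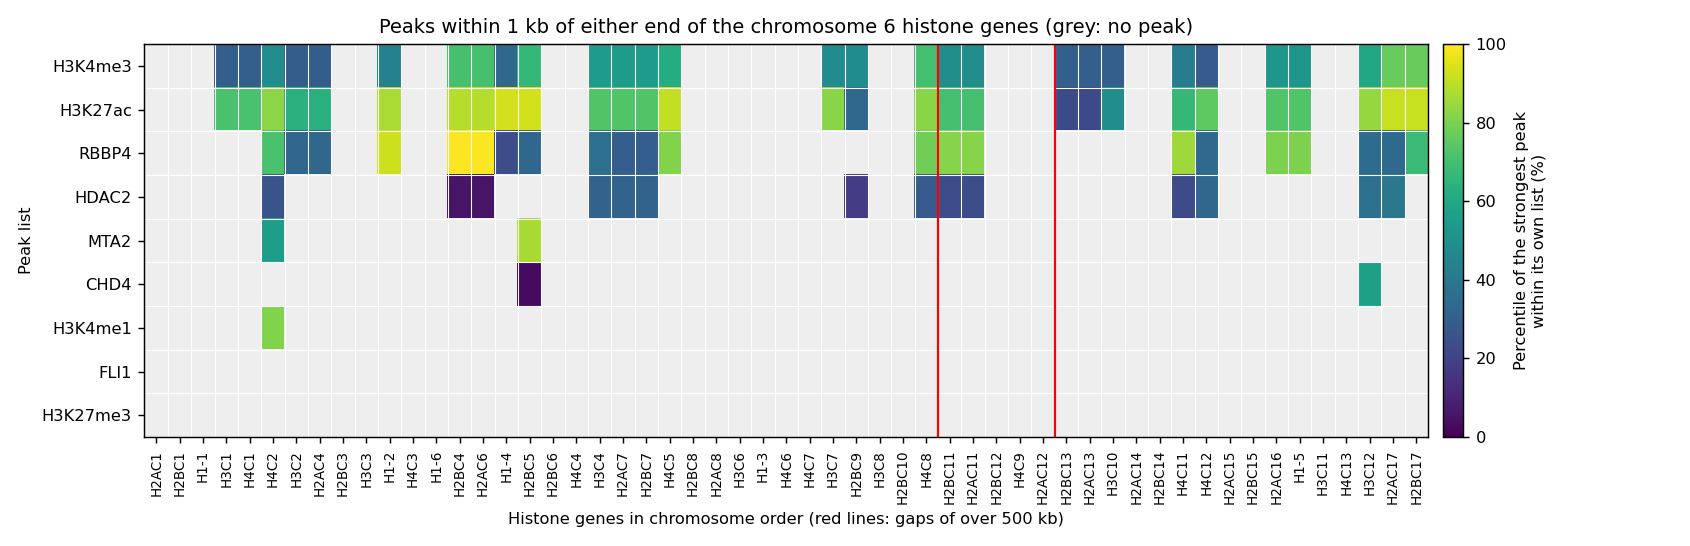
Strongest peak within 1 kb of each of the 55 histone genes (horizontal axis, chromosome order) in each of the 9 lists (vertical axis), coloured by its percentile within its own list, with grey for no peak and red lines at the gaps of over 500 kb. The 29 columns with colour carry both H3K4me3 and H3K27ac, RBBP4 is the next most frequent row with 22 genes, and 26 columns are grey throughout.

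All 5 families were divided in this way. H3K4me3 lay at 3 of 6 H1 genes, 7 of 12 H2A genes, 7 of 15 H2B genes, 6 of 10 H3 genes and 6 of 12 H4 genes. The bare genes were H1-1, H1-3 and H1-6 among H1, H2AC1, H2AC8, H2AC12, H2AC14 and H2AC15 among H2A, and H2BC1, H2BC3, H2BC6, H2BC8, H2BC10, H2BC12, H2BC14 and H2BC15 among H2B. Among the nucleosome core histones H3 and H4 they were H3C3, H3C6, H3C8 and H3C11, and H4C3, H4C4, H4C6, H4C7, H4C9 and H4C13. The 3 genes known for expression in testis, H1-6, H2AC1 and H2BC1, were all bare, and the nearest H3K4me3 peaks lay 14.36 kb, 236.1 kb and 235.3 kb away.

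Many histone genes are near-identical copies, and the handling of reads that match several copies is not stated. Its part in the bare class was not tested.

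The H4 genes, whose protein forms the nucleosome core with H3, held some of the tallest H3K4me3 peaks. H4C8 had an H3K4me3 peak of 20.11-fold, H3K27ac of 11.49-fold, RBBP4 of 5.391-fold and HDAC2 of 4.389-fold. H4C5 had 18.42-fold for H3K4me3, 14.11-fold for H3K27ac and 5.539-fold for RBBP4, with no HDAC2 peak. At the low end of the whole cluster, H4C12 had 11.97-fold for H3K4me3, 10.14-fold for H3K27ac, 3.818-fold for RBBP4 and 4.534-fold for HDAC2. H4C12 and H4C8 thus carried peaks of the same 4 targets at H3K4me3 heights in the 28.69th and 70.29th percentile of the list.

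H4C2 had peaks of the most targets of any histone gene. It had H3K4me3 of 16.05-fold, H3K27ac of 11.61-fold, RBBP4 of 5.015-fold, HDAC2 of 4.303-fold and MTA2 of 6.935-fold. It was also the only histone gene with H3K4me1, whose 2 peaks of 5.555-fold and 7.36-fold lay on either side of the H3K4me3 peak. The MTA2 summit was 83 bp downstream of the start shown above.

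Among H2A and H2B, which enter the nucleosome as dimers, the pair H2AC17 and H2BC17 shared the tallest H3K4me3 peak of the cluster, 21.49-fold (76.85th percentile), with H3K27ac of 14.32-fold. RBBP4 reached 3.813-fold at H2AC17 and 4.889-fold at H2BC17, and HDAC2 had a peak of 4.744-fold at H2AC17 only, since the nearest to H2BC17 lay 1.033 kb away. H2BC4 and H2AC6 shared H3K4me3 of 20.24-fold, H3K27ac of 13.34-fold, HDAC2 of 3.408-fold and the cluster's tallest RBBP4 peak. That RBBP4 peak, of 9.713-fold, stood in the 99.23rd percentile of its list, beside a maximum of 9.935-fold near any protein-coding gene.

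H2AC7 and H2BC7 shared peaks of 17.12-fold for H3K4me3, 9.819-fold for H3K27ac, 3.703-fold for RBBP4 and 4.489-fold for HDAC2. The annotated H3C4 reaches from its own coding region to the start of H2AC7, so that H3C4 shared these H3K4me3, H3K27ac and HDAC2 peaks and they cannot be assigned to one of the genes. H2BC5, whose annotation runs over 13229 bp, had H3K4me3 of 19.36-fold just downstream of its start. Its MTA2 peak of 9.564-fold and CHD4 peak of 2.929-fold lay at the far end of that annotation. At the low end of these families, H2AC4 had 12.13-fold for H3K4me3 and 8.711-fold for H3K27ac, and H2BC13 had 12.23-fold and 5.698-fold with neither RBBP4 nor HDAC2.

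Of the H3 genes, H3C12 had H3K4me3 of 18.02-fold, H3K27ac of 11.92-fold, RBBP4 of 3.844-fold, HDAC2 of 4.656-fold and CHD4 of 4.861-fold. H3C7 had 15.94-fold for H3K4me3 and 11.5-fold for H3K27ac and no subunit peak, with HDAC2 1.036 kb away. H3C2 had the lowest H3K4me3 of the family, 12.13-fold in a peak it shared with H2AC4, and RBBP4 of 3.787-fold.

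The 3 marked linker histone genes had RBBP4 and no HDAC2. H1-5 had 16.7-fold for H3K4me3, 9.801-fold for H3K27ac and 5.493-fold for RBBP4. H1-2 had 15.02-fold, 12.85-fold and 6.768-fold for the same targets. H1-4 had the lowest H3K4me3 of the family, 12.93-fold, with H3K27ac of 15.07-fold, which equals the height at H2BC5 because both genes lie by the same peak.

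**Figure D2:**
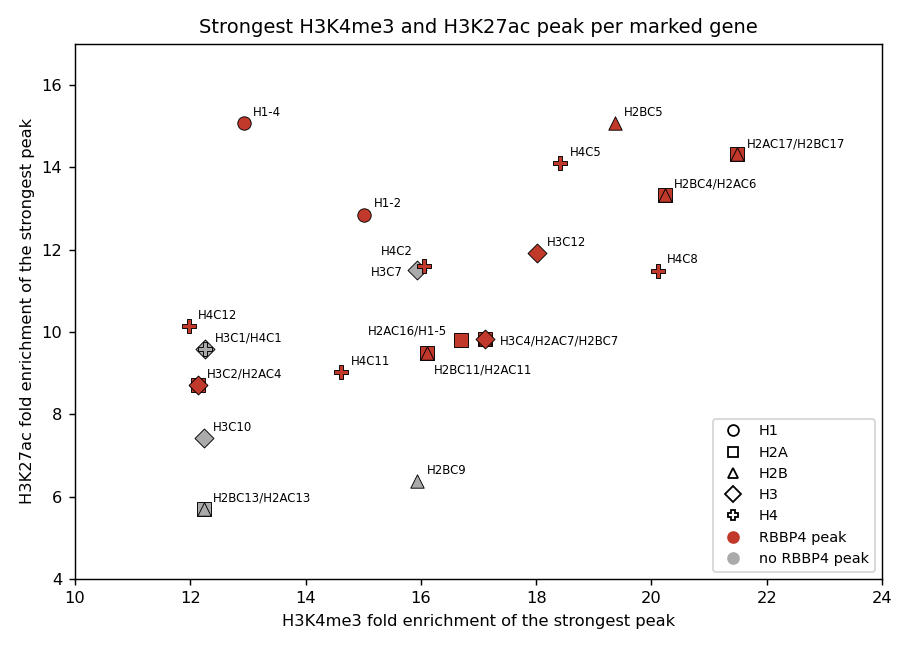
H3K4me3 fold enrichment (horizontal axis) and H3K27ac fold enrichment (vertical axis) of the strongest peak of each of the 29 marked histone genes, with 1 point per gene, the symbol giving the family and the colour the presence of an RBBP4 peak. H3K4me3 runs from 11.97 at H4C12 to 21.49 at H2AC17 and H2BC17, genes that share both peaks fall on 1 point, and the axes do not start at 0.

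H3K4me3 at the histone genes was broad and of middling height. The strongest peak per marked gene had a median fold enrichment of 16.1, against 19.04 over all protein-coding genes with such a peak, and median percentiles of 49.39 and 65.06. Its median width was 2410 bp, against 1524 bp. H3K27ac was of like height, with medians of 9.819 and 9.438, and also wider, with 1062 bp against 651 bp. Fewer peaks than genes underlie these values: 27 H3K4me3 peaks lay near the 29 genes, 16 of them near 2 or more members, and 23 genes shared a peak.

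NuRD subunits were unevenly represented. RBBP4 peaks lay at 22 histone genes (40%, interval 28.12 to 53.19), against 22.1% of all protein-coding genes. HDAC2 peaks lay at 14 (25.45%, interval 15.81 to 38.3), against 39.1%. MTA2 had peaks at 2 genes, H4C2 and H2BC5 (3.636%, interval 1.003 to 12.32), against 20.9%, and CHD4 at 2, H3C12 and H2BC5 (3.636%), against 10.5%. No histone gene had all 4 subunits, and the interval (0 to 6.528) holds the 5.63% of all genes. Any of the 4 lay at 23 histone genes (41.82%), against 45.4%.

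When only marked genes were compared, the histone gene counts stayed the same, because the bare genes had no peaks. Only the denominators and the background changed. RBBP4 lay at 22 of the 29 histone genes with H3K4me3 (75.86%, interval 57.89 to 87.78), against 37.4% of all genes with that mark. HDAC2 lay at 14 (48.28%, interval 31.39 to 65.57), against 65.8%, MTA2 at 2 (6.897%, interval 1.912 to 21.96), against 35.3%, and CHD4 at 2 (6.897%), against 16.9%. The intervals for RBBP4 and MTA2 exclude the share of all marked genes. The interval for HDAC2 ends just under it and that for CHD4 holds it. These intervals take genes as independent although neighbours share peaks, and no difference was tested. The 21 marked other genes of the same interval had RBBP4 at 11 (52.38%) and HDAC2 at 10 (47.62%). MTA2 lay at 5 of them (23.81%) and CHD4 at 7 (33.33%). For each of these subunits their interval overlaps that of the histone genes.

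By their combination of peaks, 11 marked genes had RBBP4 and HDAC2 beside the active marks (H2BC4, H2AC6, H3C4, H2AC7, H2BC7, H4C8, H2BC11, H2AC11, H4C11, H4C12 and H2AC17). RBBP4 was the only subunit at 8 (H3C2, H2AC4, H1-2, H1-4, H4C5, H2AC16, H1-5 and H2BC17), and HDAC2 was the only subunit at 1, H2BC9. The 3 genes with MTA2 or CHD4 are named above, and no subunit was found at 6 (H3C1, H4C1, H3C7, H2BC13, H2AC13 and H3C10). RBBP4 was present at all 3 marked H1 genes, 6 of 7 marked H2A genes, 5 of 7 H2B, 3 of 6 H3 and 5 of 6 H4, and HDAC2 at 0, 4, 4, 2 and 4.

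The strongest RBBP4 peak per gene was higher at histone genes than at all protein-coding genes with RBBP4. The strongest per gene had a median of 4.952-fold (range 3.537 to 9.713) and a median percentile of 69.66, against 3.738-fold and 31.04 over all protein-coding genes with RBBP4, with peaks shared by neighbours counted for each gene. The 32 distinct RBBP4 peaks near histone genes, weaker ones included, had a median of 3.805-fold. The whole list, which also holds peaks away from gene ends, had 4.263-fold, so this is a different comparison. The strongest HDAC2 peaks ran lower, with medians of 4.346-fold and 4.787-fold and percentiles of 27.21 and 41.22. Closest to the 1 kb limit, the RBBP4 peak of H2AC16 lay inside at 0.663 kb, and just outside lay H3K4me1 at H3C12 (1.005 kb), HDAC2 at H2BC17 and H3C7, H3K4me1 at H3C2 (1.181 kb), MTA2 at H2BC9 (1.208 kb), H3K4me1 at H1-2 (1.339 kb), CHD4 at H2AC17 (1.402 kb) and H3K27ac at the bare H2BC14 (1.49 kb).

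**Figure D3:**
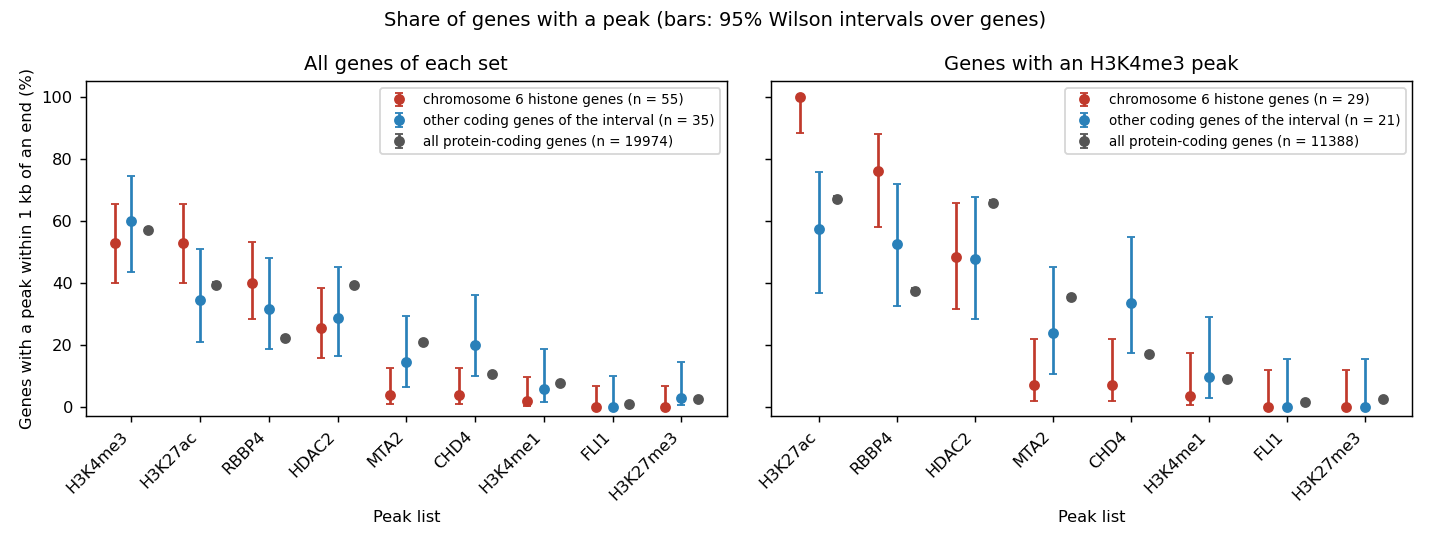
Share of genes with a peak (vertical axis, %) in each list (horizontal axis), for all genes of each set on the left and for those with H3K4me3 on the right, with points for the share and bars for 95% Wilson intervals. Among marked genes, H3K27ac (100%) and RBBP4 (75.86%) are above all marked protein-coding genes (66.9% and 37.4%) and MTA2 (6.897%) is below (35.3%).

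The remaining lists had 1 gene between them. H3K4me1 lay at 1 gene, H4C2 (1.818%), against 7.70% of all genes. FLI1 lay at 0 of 55 (interval 0 to 6.528), against 0.856%, and H3K27me3 at 0 of 55 (same interval), against 2.37%. Among genes with H3K4me3 alone, the background was 9.07% for H3K4me1, 1.36% for FLI1, 2.41% for H3K27me3 and 9.38% for all 4 subunits, where the 29 marked histone genes had 1, 0, 0 and 0. The intervals over the 55 genes hold the background for all 3 lists (0.3217 to 9.606 for H3K4me1), so these counts do not set the histone genes apart.

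The FLI1 list had 2 peaks within the whole interval, described here although chosen after their values were seen. The first (chr6:26136407-26136837) had 15.81-fold enrichment and stood in the 95.52nd percentile, 11.72 kb from H2AC6. Peaks of all 4 subunits overlapped it, with CHD4 of 9.009-fold (98.72nd percentile), RBBP4 of 9.459-fold (99.08th), MTA2 of 8.838-fold and HDAC2 of 5.576-fold, as did H3K27ac peaks of 18.81-fold and 17.48-fold. It was thus a 4-subunit site between the marked genes H2AC6 and H1-4, neither of which had CHD4 or MTA2 within 1 kb.

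The second FLI1 peak (chr6:26230480-26230720) had 5.102-fold enrichment and lay in the longest bare run, 3.007 kb from H3C6 and 3.492 kb from H1-3. CHD4 (4.954-fold), MTA2 (5.34-fold) and RBBP4 (3.88-fold) overlapped it, and HDAC2 and H3K27ac did not. An H3K4me1 peak of 7.058-fold and an H3K27me3 peak of 4.964-fold, the latter 2.387 kb from H1-3 and the nearest of 3 H3K27me3 peaks in the interval to any histone gene, lay beside it.

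Around the start sites, known for 50 of the 55 genes, the summits at histone genes had medians further downstream than those of protein-coding genes at large, a difference for which no test was made. The nearest H3K4me3 summit was downstream of the start at 23 of 27 marked genes (85.19%) with a median of 400 bp, against 76.81% and 234 bp over all protein-coding genes. HDAC2 summits were downstream at 11 of 13 (84.62%), median 161 bp, against 53.3% and 21 bp. RBBP4 summits were downstream at 12 of 19 (63.16%), median 28 bp, where over all genes 34.06% were and the median was -57 bp, upstream of the start. For H3K27ac the median was also larger, 269 bp against 172 bp, but fewer summits were downstream, 17 of 27 (62.96%) against 69.33%. Some counted summits lay at a neighbouring histone gene, so an offset need not place a gene's own signal. The H3K4me3 summit counted for H2AC4 (1898 bp) lay in H3C2, and that for H1-5 (2082 bp) in H2AC16. In the upstream direction, that for H3C7 (-1462 bp) lay at the end of H2BC9.

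Coverage around the start was compared in genes with both marks, 27 histone genes and 6413 protein-coding genes in all. H3K27ac covered 84.18% of the first 500 bp downstream of histone starts and 79.95% of the next, against 67.88% and 31.84% over all genes. H3K4me3 covered 94.27% and 94.43% downstream and dipped to 52.55% in the 500 bp upstream, against 67.7% there over all genes. RBBP4 covered 28.92% and 28.7% downstream against 9.409% and 4.353%, and HDAC2 18.29% and 11.72% against 37.49% and 18.77%. These windows often reach a neighbouring histone gene, whose own marks are counted in them.

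The head-to-head H2A and H2B pairs, picked out after their values were seen, show the arrangement most plainly. There were 9 pairs with 194 to 248 bp between starts. Both genes were marked in 5 (H2BC4 with H2AC6, H2AC7 with H2BC7, H2BC11 with H2AC11, H2BC13 with H2AC13, H2AC17 with H2BC17), both were bare in 4 (H2AC1 with H2BC1, H2BC8 with H2AC8, H2AC14 with H2BC14, H2AC15 with H2BC15), and none was split. Since partners lie well within 1 kb of each other, the counting window alone nearly fixes that agreement.

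In all 5 marked pairs the H3K4me3 signal was divided into peaks on each side, with no summit between the starts. The gap was 147 bp at H2BC4 and H2AC6, 143 bp at H2AC7 and H2BC7, 324 bp at H2BC11 and H2AC11, 633 bp at H2BC13 and H2AC13 and 178 bp at H2AC17 and H2BC17. H3K27ac gaps were wider in each pair, at 376, 196, 486, 1366 and 316 bp in the same order. RBBP4 and HDAC2 peaks covered 0% of the bases between the starts in all 5.

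At H2BC4 and H2AC6 the subunits took opposite sides. The RBBP4 peak (chr6:26122613-26123794) lay over H2BC4 and the HDAC2 peak (chr6:26124319-26124581) over H2AC6, on either side of the shared promoter printed above. At H2BC11 and H2AC11 HDAC2 had peaks over both genes, while RBBP4 lay over H2BC11 and 0.26 kb beyond an end of H2AC11, and at H2AC7 and H2BC7 RBBP4 lay over both and HDAC2 over H2BC7 only. H2BC13 and H2AC13 had neither.

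**Figure D4:**
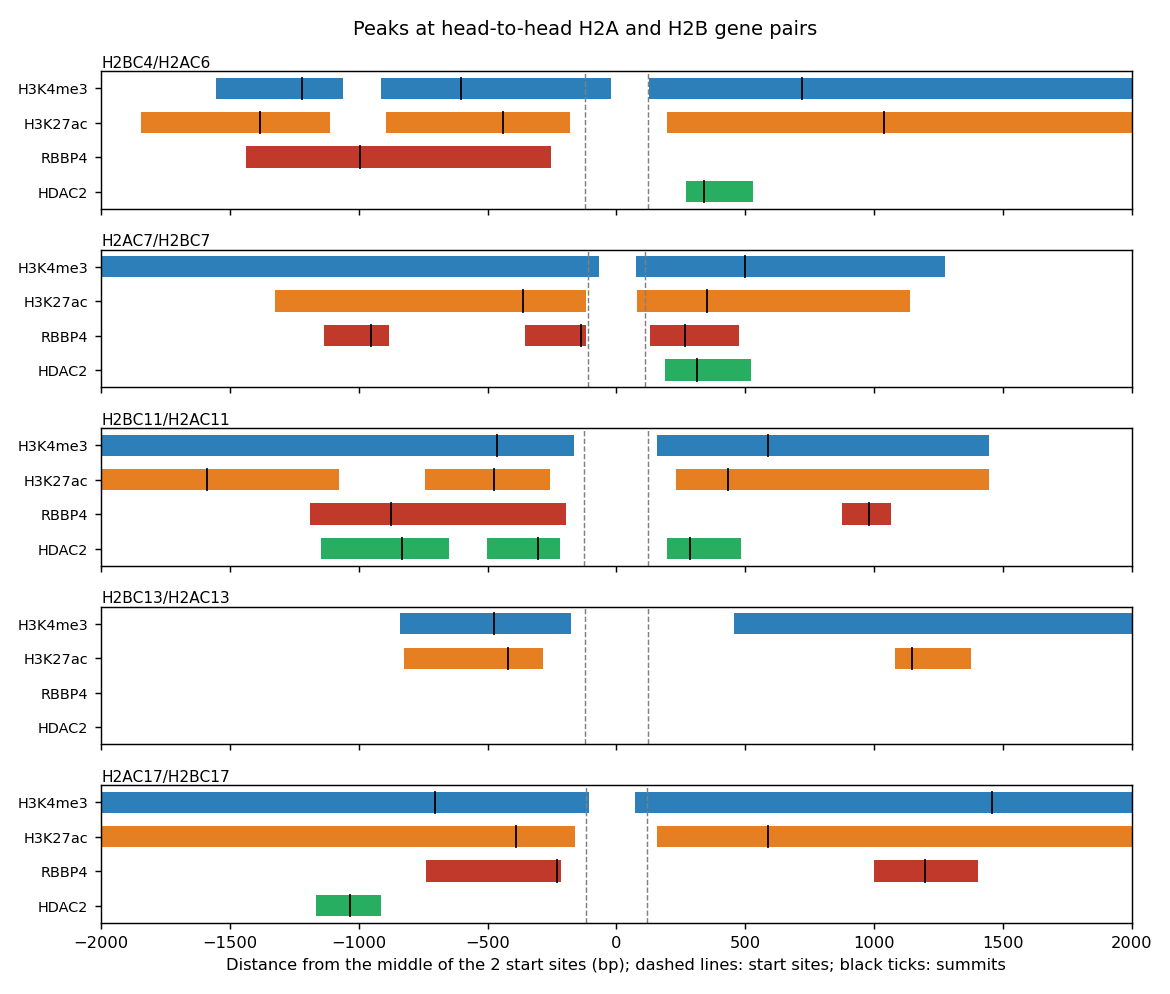
Peaks of H3K4me3, H3K27ac, RBBP4 and HDAC2 (rows) at the 5 marked head-to-head pairs (panels) by distance in bp from the midpoint between the starts (horizontal axis), with dashed lines at the starts and black ticks at summits. Bars that touch a panel's edge run on beyond it, and in each panel no summit falls between the dashed lines.

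Promoters of marked and bare genes held the TATA box, CCAAT box and octamer at like shares, counted from 250 bases before to 50 after the start on both strands. Starts were given for 27 marked and 23 bare genes, with several starts of a gene counted together, and H4C1, H4C3, H2AC12, H3C11 and H3C12 were not matched. TATAAA was present at 70.37% of marked and 65.22% of bare genes, against 12.4% of all protein-coding promoters. CCAAT was present at 81.48% and 91.3%, against 42.1%, and the octamer at 44.44% and 43.48%, against 2.22%. The E2F words were present at 8 marked genes (29.63%, interval 15.85 to 48.48) and 3 bare genes (13.04%, interval 4.538 to 32.13), against 1.992%. H3C4 and H2AC7 share 1 start in the table and so share that window. The windows of head-to-head partners also overlap, so 1 match can count for both genes. Marked genes with E2F words include both partners of H2BC11 with H2AC11, H2BC13 with H2AC13 and H2AC17 with H2BC17. The bare ones include both H2AC14 and H2BC14.

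The motifs followed the families. The octamer was present at 9 of 11 H2A, 12 of 15 H2B and 1 of 8 H3 promoters and at 0 of the H1 and H4 promoters. The H3 gene is H3C4, whose match lies in the window it shares with H2AC7. The H1 box was present at 6 of 6 H1 promoters and at no other histone promoter (5.837% of all promoters), and the HINFP core at 5 of 10 H4 promoters and at no other (20.29% of all promoters). CCAAT was present at every H1, H2A, H2B and H3 promoter searched and at 3 of 10 H4 promoters, which were 0 of 5 marked and 3 of 5 bare ones. The ETS repeat was found at 1 histone promoter, the bare H4C6 printed above, against 4.92% of all promoters. The windows had a median GC content of 42.33% and 10.5 CpG, against 62.33% and 21.67 over all protein-coding genes, and marked (42.33%) and bare (42.67%) genes differed little in GC.

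**Figure D5:**
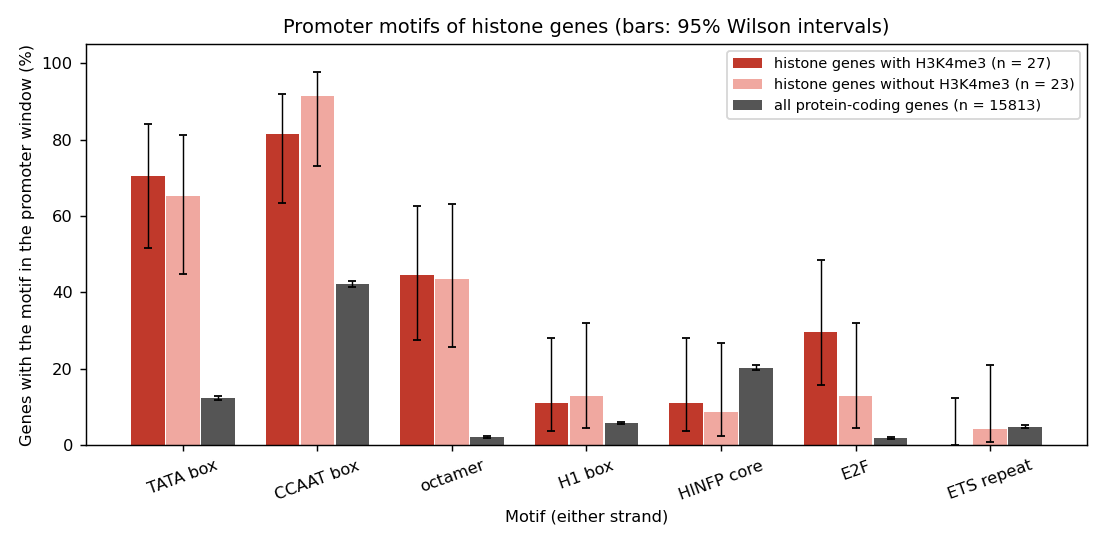
Share of genes whose promoter window holds each motif on either strand (vertical axis, %), for histone genes with and without H3K4me3 and for all protein-coding genes, with bars for the share and lines for 95% Wilson intervals. The intervals of marked and bare histone genes overlap for all 7 motifs, and TATA box, CCAAT box, octamer and E2F stand above the genes at large in both.

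Of the 35 other protein-coding genes in the interval, CHD4 lay at 7 (20%, interval 10.04 to 35.89) and MTA2 at 5 (14.29%, interval 6.26 to 29.38), and 5 had all 4 subunits. Both intervals overlap those of the histone genes, and the difference was not tested. HDAC2 lay at 10 (28.57%) and RBBP4 at 11 (31.43%), near the shares at histone genes. The 104 tRNA genes of the same interval, looked at after their values were seen, had H3K4me3 at 59 (56.73%) and H3K27ac at 13 (12.5%). Of the subunits, RBBP4 lay at 55 of them (52.88%), CHD4 at 49 (47.12%, interval 37.8 to 56.64), HDAC2 at 45 (43.27%) and MTA2 at 26 (25%). Of the 76 CHD4 peaks in the interval, 2 were near histone genes and 53 near tRNA genes alone. Of the 102 H3K27ac peaks, 44 were near histone genes.

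The 15 replication-dependent H2A, H2B, H3 and H4 genes with like symbols on other chromosomes had the same division. H3K4me3 and H3K27ac lay at 11, the same 11 for both marks, with RBBP4 at 5, HDAC2 at 4 and MTA2 and CHD4 at 0. The tallest H3K4me3 there was 25-fold at H2BC18 and H3C13, and H4C14, H3C14, H3C15 and H2BC12L had no peak. The 12 histone genes listed as variants had both active marks at 10, HDAC2 at 7, MTA2 at 4, RBBP4 at 3 and CHD4 at 0. H3-3B, which encodes the variant H3.3, had MTA2 of 15.66-fold.

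The genes that serve histone gene expression had H3K4me3 throughout. All 15 transcription and mRNA processing factors had H3K4me3, 10 had H3K27ac, 11 HDAC2, 8 MTA2, 4 RBBP4 and 2 CHD4. NPAT, the organiser of histone gene transcription, had H3K4me3 of 30.54-fold, H3K27ac of 12.37-fold, HDAC2 of 5.987-fold, MTA2 of 6.729-fold and RBBP4 of 2.588-fold. Its H3K4me3 peak was taller than that of every chromosome 6 histone gene. All 7 histone chaperone genes had both active marks, and 1, DAXX, had a FLI1 peak (5.746-fold).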

How the data were processed

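Peak lists of 9 samples of SKNMC cells were used, 1 per target. Per the submitters' processing notes the build was GRCh38 and the tools were BWA 0.7.17, bedtools 2.27.1, SAMtools 1.9, Trimmomatic 0.36, deepTools 3.2.1 and FastQC 0.11.7. The control library, pooling of replicates, excluded regions and the handling of reads that match several places are not given in the sources read. The authors deposited a fold enrichment for each peak, which is a ratio over local background. The −log10 p, and the −log10 q that was not used, are deposited values too. The smallest −log10 p was 7.01 for RBBP4, 5.02 for FLI1 and 9.003 to 9.163 elsewhere. Depth is unknown.

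Positions were made 1-based. Genes came from a RefSeq table of GRCh38.p14 (chromosomes 1 to 22 and X), and starts and promoters from a RefSeq promoter table of the same build. Overlaps, ranks, Wilson intervals and motif counts were computed in Python 3.11.15 with pandas 2.3.3, numpy 2.4.6 and scipy 1.17.1. The counting was tested on simulated peaks. No test across samples was possible.

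The members, gene lists and motifs were chosen with earlier results of these data known. Genes named with values were the 3 highest and the lowest of each family by H3K4me3 fold enrichment, bare genes, genes with FLI1, H3K4me1, H3K27me3 or all 4 subunits, and the testis genes. Alternatives used a window of 0.5 or 2 kb, a −log10 p of at least 15, the summit, the start alone, or the gene body.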

Additional observations from a re-analysis of the deposited data

How the results depend on the processing

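The counts for the 9 lists were recomputed under all alternatives and that for all 4 subunits under all but the start alone and the gene body, 58 values in all, and 52 stayed within 1.5 times the reported count. Among the 52 were counts of 0 that stayed at 0. For most of these genes the body lies inside the 1 kb windows, so counting it could add no peak. The exceptions to the 1.5 times were small counts. MTA2 fell from 2 genes to 1 (H4C2) with the start alone. CHD4 fell from 2 genes to 1 (H3C12) with a window of 0.5 kb, with peaks of −log10 p 15 or more and with the summit, and to 0 with the start alone, where H3C12 has no start in the table. H3K4me1 rose from 1 gene to 5 with a window of 2 kb, gaining H3C2, H1-2, H2AC8 and H3C12. Over these alternatives H3K4me3 lay at 26 to 29 genes, H3K27ac at 27 to 30, RBBP4 at 16 to 22 and HDAC2 at 11 to 16, while FLI1 and H3K27me3 stayed at 0, as did all 4 subunits together under the alternatives run for them. Both active marks lay at 29 genes except with the summit, where 26 had both and H2AC4, H3C7 and H1-5 had H3K27ac alone, and with the start alone, where 27 had both. With a window of 2 kb, 24 genes had no peak, and H2BC14 had H3K27ac without H3K4me3. No paired analysis was possible because the targets have 1 sample each and only the inputs carry replicate numbers. Depth limits every absence, since the files give no read counts.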
